A study of Saccharomyces cerevisiae with 12 samples.

Results

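The ends of the 16 nuclear chromosomes of budding yeast (*Saccharomyces cerevisiae*) were examined in a genome-wide measurement of acetylated histone H4 (AcH4). The outer zone was defined by position alone, as the tiling array probes whose center lies within 20 kb of the first or of the last probe of a chromosome, and it held 1778 of 41480 nuclear probes. The silent mating locus *HML*, at positions 11000 to 15000 of chromosome 3 on the sacCer1 assembly, was left out with its 7 probes, and the other 39695 probes are called the rest of the chromosomes. Each of the 32 ends held between 13 and 77 probes, with a median of 61.

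AcH4 was measured by chromatin immunoprecipitation (ChIP) with an antibody to acetylated H4 and hybridization to 2-color arrays, with immunoprecipitated (IP) DNA in Cy5 and input DNA in Cy3. There were 3 biological repeats each of wild type (BY4741, MATa *his3Δ1 leu2Δ0 met15Δ0 ura3Δ0*), of *rco1*Δ in the same background with *RCO1* replaced by *KANMX6*, of *rsc1*Δ and of *rsc2*Δ, all grown in YPD. The background genotype of the *rsc1*Δ and *rsc2*Δ array strains was not given in the sources used here. The values are log2 ratios of IP over input, centered on the median probe of each array. No array measured total histone, so the amount of histone and its acetylation cannot be told apart in these ratios. The input signal was lost at 10, 9 and 7 neighboring probes on chromosomes 7, 12 and 13 in *rsc1*Δ, *rsc2*Δ and *rco1*Δ, which are the chromosomes that carry *RSC1*, *RSC2* and *RCO1*, and none of these probes lay in the outer zone. The share of outer probes with a signal well above background ranged over the arrays from 77.0% to 99.7% for input and from 79.0% to 97.6% for IP, and 932 of the 1778 passed in both channels of all 12 arrays. Scan days overlapped with the strains only in part: the *rsc1*Δ, *rsc2*Δ and wild type repeats 1 and 2 shared a day, repeats 3 of both *rsc* mutants shared another, 1 *rco1*Δ array shared a day with 1 wild type array, and the other *rco1*Δ arrays were scanned alone.

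Yeast telomeres are packed into silent chromatin by the Sir2, Sir3 and Sir4 proteins, which spread inward from Rap1 bound at the telomeric repeats. Sir2 removes the acetyl group from lysine 16 of H4, and Sir3 binds the unacetylated tail, so low H4 acetylation is a known mark of these regions. Rco1 belongs to Rpd3S, a histone deacetylase complex that acts on transcribed gene bodies behind the Set2 methyltransferase. Rsc1 and Rsc2 are alternative subunits with bromodomains, modules that bind acetyl-lysine, in the RSC remodeling complex. The ends also hold gene families that are present in several near-identical copies, such as the seripauperins (*PAU*), the *COS* genes and the *YRF1* genes of the Y′ elements. In the R64 gene order, the 10 outermost protein-coding genes of the ends included 19 of 24 *PAU*, 11 of 12 *COS*, 8 of 8 *YRF1* and 6 of 6 *MAL* genes. Since copies share sequence, a probe in such a gene may take up DNA of other ends; this was not tested, and probes were not assigned to genes because the files give positions only, on another assembly than the gene table.

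AcH4 was low at the chromosome ends of all 4 strains. The median of the outer probes minus that of the rest was −0.28, −0.29 and −0.31 for wild type arrays. For *rsc1*Δ it was −0.44, −0.41 and −0.42, for *rsc2*Δ −0.27, −0.28 and −0.22, and for *rco1*Δ −0.31, −0.33 and −0.34. It was below 0 on 12 of 12 arrays, with a mean of −0.32 ± 0.065 (SD, n = 12; exact permutation of signs, two-sided, p = 0.000488, the smallest that 12 arrays can give). All arrays share the same probes, so this p speaks of repeatability over arrays and not of a comparison with other regions. The input channel alone was also below 0 on 12 of 12 arrays, with the same p in that test and an outer-minus-rest difference in log2 signal of −0.060 ± 0.032 (SD, n = 12). The IP channel stood at −0.31 ± 0.02 in wild type and −0.44 ± 0.05 in *rco1*Δ (SD, n = 3 each). The difference in log2 ratio was larger in the outermost part of the zone. Over the 358 probes of the outermost 5 kb the difference from the rest was −1.06 ± 0.10 for wild type, −1.26 ± 0.14 with *RSC1* deleted, −1.04 ± 0.10 with *RSC2* deleted and −1.56 ± 0.04 with *RCO1* deleted (SD, n = 3 each), and it was below 0 on 12 of 12 arrays (exact permutation of signs, two-sided, p = 0.000488). The size of both differences depended on the background and dye correction: with normexp, which models the local background, followed by loess, which removes a dependence of the ratio on brightness, they were −0.067 and −0.28 over the 12 arrays.

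The level rose steeply with distance from the outermost probe. In wild type, the 138 probes within 2 kb had a median log2 ratio of −1.73, −1.64 and −1.77 on the 3 arrays. The 220 probes from 2 to 5 kb stood at −0.52, −0.65 and −0.67, and the 416 probes from 5 to 10 kb at −0.16, −0.11 and −0.18. No wild type array of one distance class reached those of the next. Over the probes that passed the background test on all 12 arrays, which leaves out the dimmest IP signals, the wild type median within 2 kb was −0.18, from 40 of the 138 probes, and those from 2 to 5 kb and from 5 to 10 kb were above 0, at 0.16 and 0.22. Within 2 kb it was −0.47 with loess after normexp and −1.05 in the deposited table. The filter on dim probes also moved a class further in upward, to 0.43 from 15 to 20 kb. Relative to the rest of the chromosomes, the outermost 5 kb of wild type stayed below 0 under every processing setting with all arrays, between −1.06 and −0.24. From 10 to 15 kb the wild type median was −0.28 ± 0.0039. Just inside the border of the zone, from 15 to 20 kb, it was 0.023 ± 0.032, and just outside it, from 20 to 30 kb, it was −0.18 ± 0.0078 (SD, n = 3 each). Most of the rise lay within 5 kb, and the values further in went up and down without a trend up to 40 kb. The first probe is not the physical end of a chromosome. Between 40 and 19614 bases preceded the first probe of a left end, with a median of 3161.5. At the 8 left ends whose first probe lay within 3 kb of the first base, the wild type medians were lower still, at −3.71 ± 0.24 within 2 kb and −2.27 ± 0.18 from 2 to 5 kb, and −0.09 ± 0.10 from 5 to 10 kb (SD, n = 3 each).

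**Figure D1:**
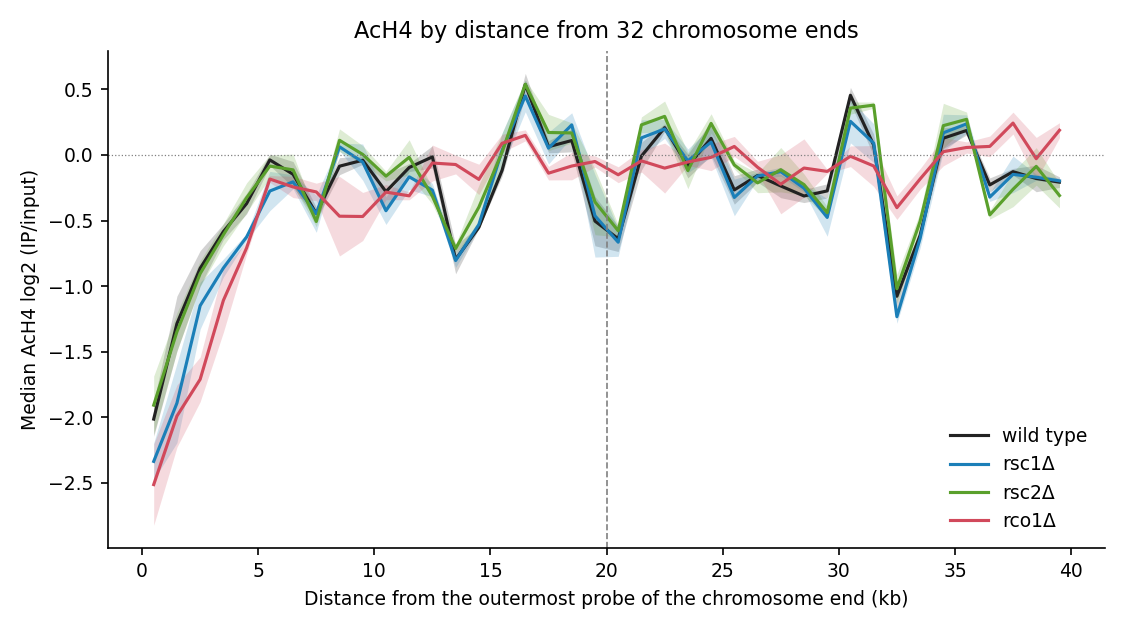
Median AcH4 log2 (IP/input) of the probes in 1 kb classes of distance from the outermost probe, over 32 chromosome ends. Lines are means and bands are SDs of 3 arrays per strain, and the dashed line marks the 20 kb border; every strain starts near −2 or below and reaches the level of the flank by about 5 kb, and *rco1*Δ is the lowest in each class out to 5 kb.

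The *rco1*Δ strain differed from wild type in the outermost probes. Within 2 kb the *rco1*Δ arrays had medians of −2.62, −2.10 and −2.27, all below the 3 wild type arrays, a difference of −0.62. From 2 to 5 kb they had −1.28, −1.24 and −1.12, again all below wild type, a difference of −0.60. From 5 to 10 kb the difference was −0.17, and from 10 to 15 kb it turned to 0.12, with no overlap of the arrays in either class (exact permutation tests, two-sided, p = 0.1 each, the smallest that 3 arrays against 3 allow, and 0.2 after adjustment over the 28 comparisons of 7 distance classes and 4 strain pairs). The sign within 2 kb turned to 0.17 with normexp, while from 2 to 5 kb *rco1*Δ was lower under every correction run, by 0.17 to 1.64. These are differences of medians. The median of the differences of single probes was −0.47 within 2 kb, −0.62 from 2 to 5 kb and −0.41 from 5 to 10 kb. From 10 to 15 kb it was −0.23, against −0.24 over all nuclear probes, so single probes showed no rise there. The percentile rank from 10 to 15 kb differed by −0.86 points, with overlap of the arrays. At the 8 left ends with a first probe within 3 kb of the first base, *rco1*Δ stood at −3.79 ± 0.52 within 2 kb. Wild type stood there at −3.71 ± 0.24. From 2 to 5 kb these ends had −2.62 ± 0.41 and −2.27 ± 0.18, and from 5 to 10 kb −0.53 ± 0.25 and −0.09 ± 0.10 (SD, n = 3 each). Over all ends, the centered log2 IP signal within 2 kb was −2.30 ± 0.05 in *rco1*Δ and −1.96 ± 0.16 in wild type. For input it was −0.015 ± 0.16 and −0.12 ± 0.030 (SD, n = 3 each). The IP signal of this class passed the background test at 52.4% ± 11.6 of probes in *rco1*Δ and 71.5% ± 11.3 in wild type (SD, n = 3 each), and the part of the dim probes in the difference was not tested. From 2 to 5 kb the IP signal was −1.13 ± 0.13 in *rco1*Δ and −0.77 ± 0.06 in wild type. Input was 0.017 ± 0.12 and −0.17 ± 0.04, and neither channel overlapped. From 5 to 10 kb IP was −0.29 ± 0.04 and −0.33 ± 0.02, and input 0.038 ± 0.15 and −0.11 ± 0.05. Both channels overlapped there, so the lower ratio of that class was not seen as a lower IP signal (SD, n = 3 each).

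The strains differed in how widely their log2 ratios spread, and ranks within an array do not depend on that width. The median absolute deviation of the rest of the chromosomes was 1.11 ± 0.03 in wild type and 0.58 ± 0.09 in *rco1*Δ, against 1.11 ± 0.02 and 0.78 ± 0.07 for the outer probes (SD, n = 3 each). In *rsc1*Δ and *rsc2*Δ it was 1.27 ± 0.03 and 1.26 ± 0.03 for the rest, and 1.23 ± 0.03 and 1.15 ± 0.04 for the outer probes (SD, n = 3 each). The outer probes of *rco1*Δ were thus spread more widely than the rest of its chromosomes, and those of wild type as widely as the rest. By percentile rank among the nuclear probes of the same array, the median outer probe stood at 43.6, 43.9 and 43.5 for wild type and at 36.3, 35.0 and 37.5 for *rco1*Δ. The *rsc1*Δ arrays had 41.9, 42.2 and 42.4, and the *rsc2*Δ arrays 44.9, 44.7 and 45.8. The arrays of no pair of strains compared overlapped (exact permutation tests, two-sided, p = 0.1 each), and *rco1*Δ was the farthest from wild type, by −7.39 percentile points. In the log2 difference itself, by contrast, the *rco1*Δ and wild type arrays overlapped (−0.33 against −0.29, exact permutation test, two-sided, p = 0.2). Within 2 kb the median rank was 18.5 ± 1.8 in wild type and 3.04 ± 0.84 in *rco1*Δ, and from 2 to 5 kb it was 36.7 ± 1.0 and 12.4 ± 2.6 (SD, n = 3 each). Of the probes in the outermost 5 kb, 53.7% ± 1.0 lay in the lowest decile of the *rco1*Δ arrays, compared with 26.4% ± 2.7 of the wild type arrays. The shares were 28.2% ± 1.7 with *RSC1* and 22.5% ± 1.5 with *RSC2* deleted (SD, n = 3 each). On the 1 day on which both strains were scanned, with 1 array each, the rank of the outer probes differed by −7.22 points.

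**Figure D2:**
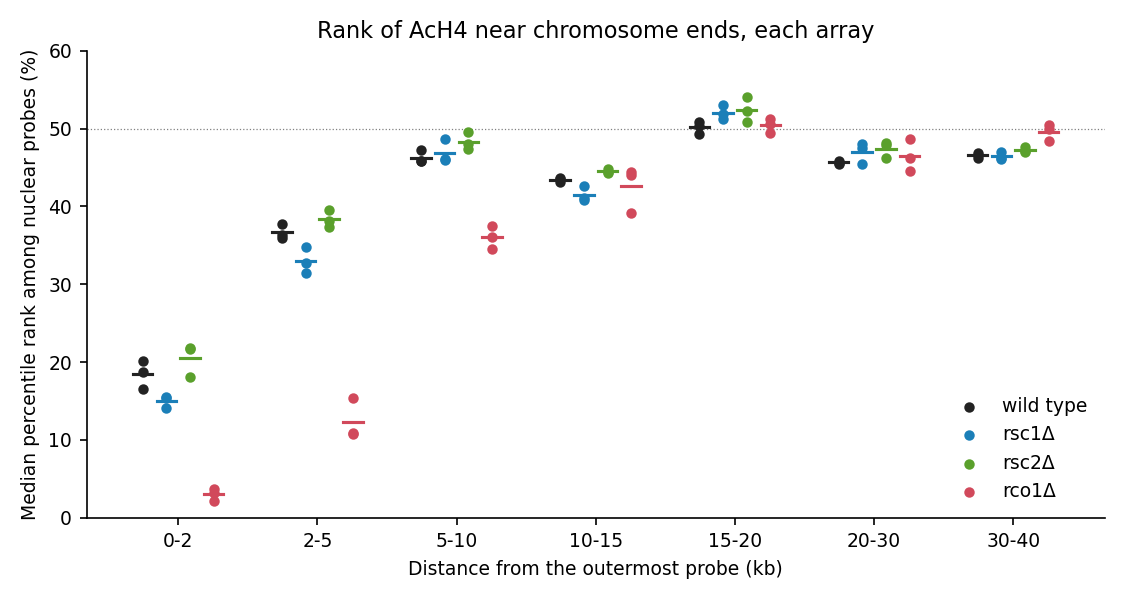
Median percentile rank of the probes in each distance class (kb from the outermost probe) among all nuclear probes of the same array, with 50% as the middle of an array. Points are the 3 arrays of each strain and bars their means; the *rco1*Δ points lie below all others out to 10 kb, at 2.11% to 3.76% in the outermost class, and mix with them from 10 to 30 kb.

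Single probes were tested with limma over all nuclear probes and called at an adjusted p under 0.05. Between *rco1*Δ and wild type, 309 of the 1778 outer probes were higher and 540 were lower, that is 17.4% and 30.4%, against a background of 26% higher and 28.1% lower among all nuclear probes. The share called lower over the whole zone was near the background, and the share called higher fell below it toward the ends. With the arrays scaled to one spread 248 outer probes were higher and 682 lower, and the share called lower was above its background, at 38.4% against 22.3% of all nuclear probes. So it was with the normalized values the authors deposited, with 157 higher and 532 lower (30.01% lower against 18.8%). With loess after normexp 121 were higher and 143 lower, and the lower share was near its background (8.04% against 7.28%). In the outermost 5 kb, 19 of 358 probes were higher (5.31%) and 127 were lower (35.5%), whereas from 20 to 30 kb 28.7% were higher and 25.1% lower. Of the 127, 48 had an IP signal too close to background on at least 1 *rco1*Δ array. The median difference was −0.54 in the outermost 5 kb, −0.34 from 5 to 20 kb and −0.24 over all nuclear probes. The largest fall among called probes without overlap of the strains, and with both channels well above background on all 6 arrays, was on the right end of chromosome 8, at 549606 to 549665, 7.20 kb from the last probe. It stood at −0.42, −0.47 and 0.40 in *rco1*Δ and 2.23, 2.91 and 2.19 in wild type, a difference of −2.60 ± 0.41 (SE, adjusted p = 7.84e-05 in limma). The probe at 927745 to 927804 on the right end of chromosome 16, 15.1 kb from the last probe, went from 1.32 ± 0.21 in wild type to −1.18 ± 0.27 in *rco1*Δ, and that at 781211 to 781270 on the right end of chromosome 14, only 0.308 kb from the last probe, from −1.03 ± 0.16 to −3.52 ± 1.07 (SD, n = 3 each). The 3 largest rises were at 25663 to 25721 on the left end of chromosome 2, 19.9 kb from the first probe, with 0.93, 0.51 and 0.82 in *rco1*Δ and −2.56, −2.23 and −2.72 in wild type (difference 3.26 ± 0.27, SE, adjusted p = 1.22e-06 in limma), and at 557055 to 557114 and 556431 to 556490 on the right end of chromosome 5, 13.2 and 13.9 kb in, with differences of 3.21 and 3.11.

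**Figure D3:**
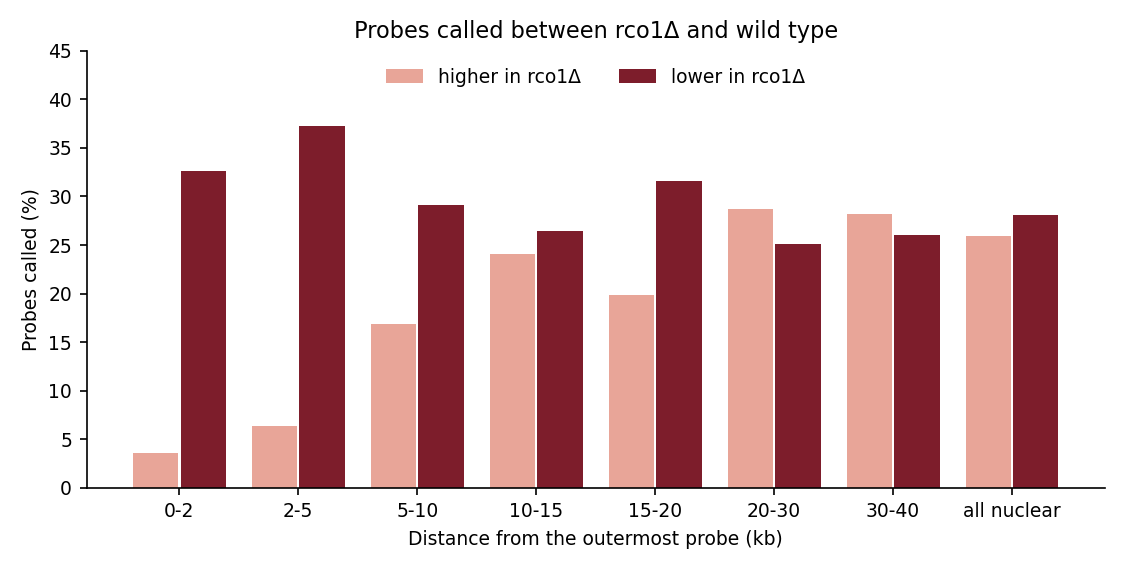
Share of probes called higher (light bars) and lower (dark bars) in *rco1*Δ than in wild type by distance from the outermost probe (kb), with all nuclear probes at the right (limma, adjusted p under 0.05). The share called higher is 3.62% within 2 kb and 28.7% from 20 to 30 kb, and the share called lower is between 25.1% and 37.3% in every class.

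The ends differed widely among themselves. The mean log2 ratio over the outer 20 kb ranged from −2.51 to 1.23 in wild type, with a median of −0.26 and an SD of 0.69 over the 32 ends, and 24 of the 32 ends lay below the rest of their own chromosome. The lowest wild type end was the left end of chromosome 3, which carries *HML*, at −2.44, −2.36 and −2.73 even with the *HML* probes left out. It was followed by the right end of chromosome 1 (−2.03 ± 0.16, from 13 probes) and the right end of chromosome 11 (−1.61 ± 0.11). Outermost in the R64 gene order were *GEX1*, *VBA3* and YCL068C on the first, *PHO11*, which codes for an acid phosphatase, on the second, and *GEX2*, *VBA5*, YKR104W, *NFT1* and the flocculin gene *FLO10* on the third. The highest was the left end of chromosome 4, at 1.30, 1.17 and 1.22, from only 17 probes, followed by the right end of chromosome 16 at 0.39 ± 0.04 and the left end of chromosome 13 at 0.10 ± 0.12 (SD, n = 3 each). The ends of chromosome 16 and 13 held the arsenic resistance genes *ARR3*, *ARR2* and *ARR1* and the disulfide bond enzyme gene *ERO1* among their outermost genes. By right and left arms the wild type outer medians were −0.19 ± 0.04 and −0.33 ± 0.05 (SD, n = 3 each). In the outermost 5 kb, 27 of 32 ends of *rco1*Δ fell within the lowest decile of the 5 kb windows of the genome, compared with 15 for wild type, 16 for *rsc1*Δ and 13 for *rsc2*Δ. Those windows held at least 5 probes, whereas 2 right, 4 left, 12 left, 12 right, 14 left and 15 right held fewer. The centered log2 input of wild type over the outermost 5 kb ranged from −1.21 at 2 right to 5.37 at 12 left. It was 3.39 at 12 right, 3.36 at 15 right and 2.12 at 14 left, and the part of repeated copies in this was not tested.

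The 29 ends with at least 20 probes were compared between strains as windows of 20 kb, in a fit over the 595 such windows of the genome. In *rco1*Δ 18 ends were lower and 5 higher than in wild type, against a background of 34.8% lower and 32.3% higher among all 595 windows. The *rco1*Δ arrays lay entirely below the wild type arrays at 16 of the 29 ends (55.2%), compared with 37.3% of all windows. The median difference was −0.22 over the ends and −0.021 over all windows. With normexp 5 ends were lower, 17.2% against 13.3% of all windows. With arrays scaled to one spread 24 were lower, 82.8% against 39.7%, and with medians in place of means 9, 31.0% against 30.4%. The largest fall was at the left end of chromosome 15, from −0.31, −0.35 and −0.43 in wild type to −1.18, −1.10 and −0.95 in *rco1*Δ (difference −0.71 ± 0.07, SE, adjusted p = 1.1e-07 in limma), and it missed the threshold with normexp (adjusted p = 0.087). The right end of chromosome 9 went from −0.08, −0.17 and −0.09 to −0.82, −0.85 and −0.75, and the right end of chromosome 12 from −0.08 ± 0.16 to −0.67 ± 0.22 (SD, n = 3 each), with adjusted p = 3.09e-08 and 0.000246 in limma. The groups did not overlap at any of these 3 ends. Their outermost genes included *AAD15*, an aryl-alcohol dehydrogenase family member, on the first, *PAU15* on the second, and the Y′ helicase genes *YRF1-5* and *YRF1-4* on the third. The falls were not placed at these genes, and the outermost 5 kb of 12 right held only 1 probe.

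The 5 ends called higher in *rco1*Δ were 11 right, 2 left, 14 left, 2 right and 10 right. All were below 0 in wild type, as were 27 of the 32 ends. The largest was at the right end of chromosome 11, where the wild type arrays had −1.58, −1.51 and −1.72 and the *rco1*Δ arrays −0.77, −0.51 and −0.50 (difference 1.01 ± 0.08, SE, adjusted p = 2.31e-08 in limma). It held the longest run of neighboring outer probes called higher, 21 probes between 652056 and 657302, 8.87 to 14.1 kb from the last probe, with a mean of −2.22 ± 0.07 in wild type and −0.18 ± 0.12 in *rco1*Δ (SD, n = 3 each). The outermost 5 kb of the same end, in contrast, were at −2.96 in wild type and −2.95 in *rco1*Δ, with SDs of 0.46 and 0.64. The left end of chromosome 2 rose from −1.02 ± 0.03 to −0.43 ± 0.04 and the left end of chromosome 14 from −0.61 ± 0.06 to −0.19 ± 0.09 (SD, n = 3 each, adjusted p = 4.31e-07 and 3.63e-05 in limma). None of the 5 ends called higher was so with median signals minus background or in the deposited table, where the differences at these 3 ends were between 0.18 and 0.46 and the adjusted p between 0.19 and 0.27. The left end of chromosome 2 also missed the threshold with arrays scaled to one spread (adjusted p = 0.088) and over well measured probes (adjusted p = 0.1).

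The 3 ends with under 20 probes were not tested. Wild type and *rco1*Δ means were −0.94 and −1.87 at the right end of chromosome 8, −2.03 and −2.48 at that of chromosome 1, and 1.23 and 0.56 at the left end of chromosome 4, and the *rco1*Δ arrays lay below those of wild type at each.

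**Figure D4:**
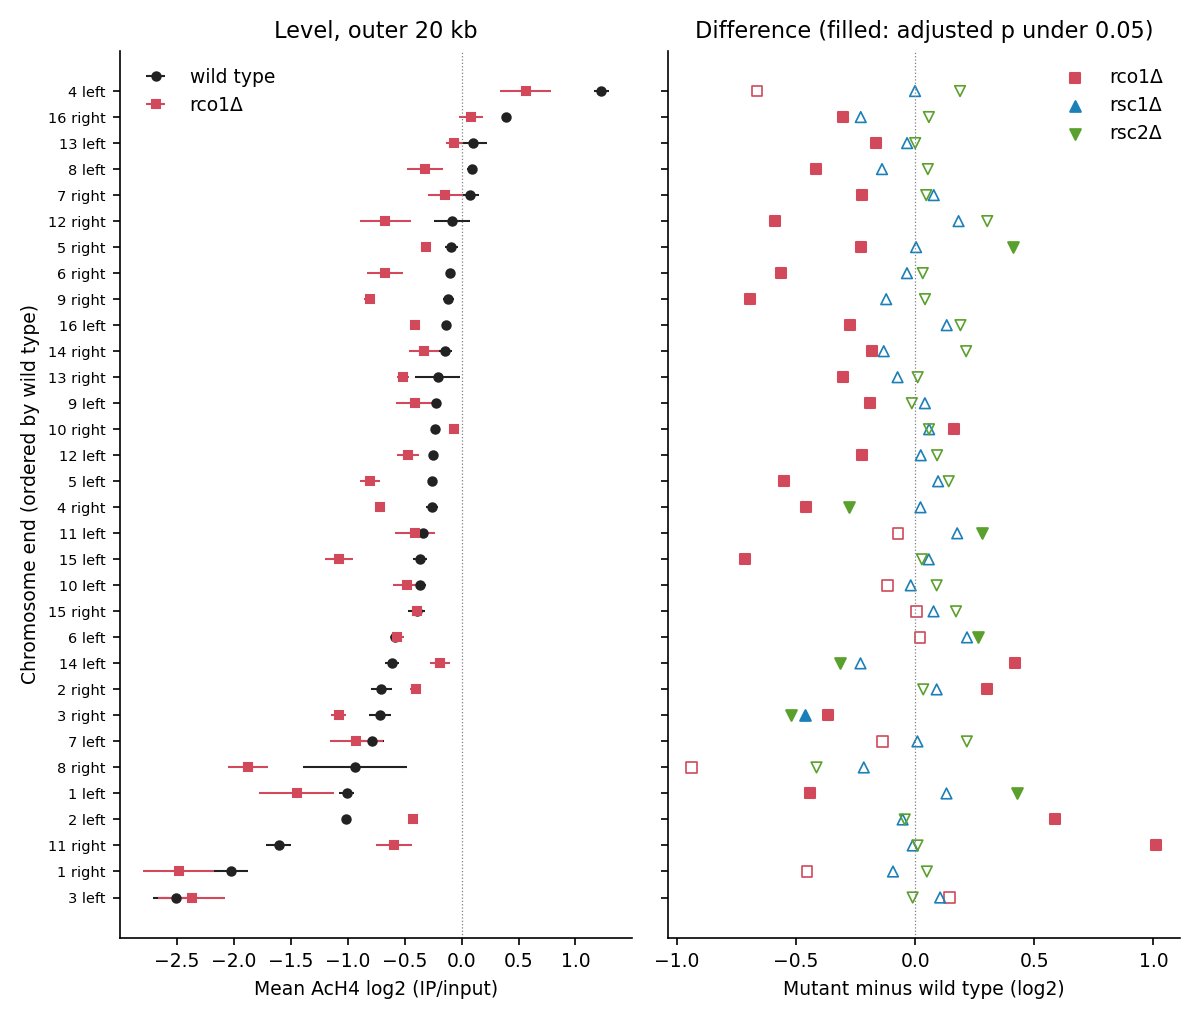
The 32 chromosome ends ordered by wild type AcH4, with chromosome and side on the vertical axis. Left, mean log2 (IP/input) of the outer 20 kb in wild type and *rco1*Δ with SDs of 3 arrays; right, mutant minus wild type for *rco1*Δ, *rsc1*Δ and *rsc2*Δ, with filled symbols for an adjusted p under 0.05 and open ones otherwise or where an end had under 20 probes and was not tested (1 right, 4 left, 8 right). Most *rco1*Δ symbols lie to the left of 0, and the symbol farthest to the right is 11 right at 1.01.

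At the outermost 5 kb, 26 ends had at least 5 probes, among 2315 windows of 5 kb. In *rco1*Δ 15 of the 26 were lower (57.7%) and 0 higher, against 39.9% and 32.6% of all windows in limma, and 0 were higher at an unadjusted p under 0.05. With loess after normexp 6 were lower and 2 higher, the lower share being 23.1% against 17.8% of all windows. With normexp 3 were lower and 0 higher, and the lower share was then under the background (11.5% against 25.3%), whereas with one spread 24 were lower (92.3% against 37.4%). The median difference was −0.49 over the ends and −0.085 over all 5 kb windows. The largest fall was at the right end of chromosome 9, from −0.45, −0.63 and −0.61 in wild type to −2.17, −2.01 and −2.02 in *rco1*Δ (difference −1.51 ± 0.11, SE, adjusted p = 7.4e-09 in limma). It held the longest run of called falls, 11 probes between 435161 and 438255, with a mean of 0.03 ± 0.05 in wild type and −1.80 ± 0.06 in *rco1*Δ (SD, n = 3 each), of which 4 were well above background on all 6 arrays. The right ends of chromosomes 5 and 14 fell by 1.13 and 1.05. The 6 tested ends at which wild type was lowest, picked by that level, did not pass the test. Part of the outermost IP signals lay near background, and whether a further fall could be measured at these ends was not tested. The left ends of chromosomes 3, 1, 11 and 7 were at −3.77, −3.12, −3.07 and −2.62 in wild type and at −3.82, −3.34, −3.17 and −2.62 in *rco1*Δ, and the right ends of chromosomes 13 and 11 at −3.41 and −2.96 against −3.86 and −2.95 (adjusted p between 0.13 and 0.99 in limma).

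**Figure D5:**
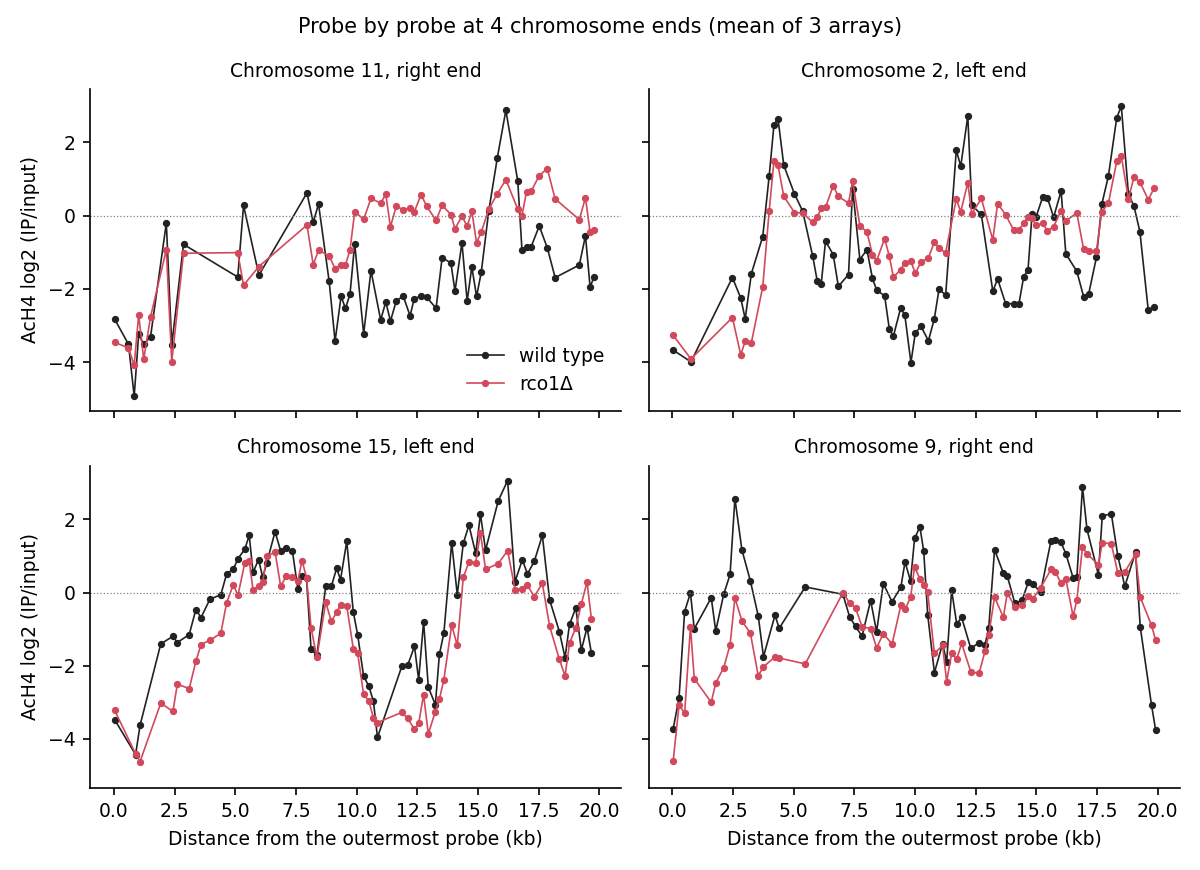
Log2 (IP/input) of single probes by distance from the outermost probe at the 2 ends with the largest rise (11 right, 2 left) and the 2 with the largest fall (15 left, 9 right) in *rco1*Δ, means of 3 arrays. At 11 right the *rco1*Δ points lie near 0 from 10 to 15 kb where wild type is near −2, while at 15 left and 9 right the *rco1*Δ points lie below those of wild type over most of the first 5 kb.

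In *rsc1*Δ the measures of the whole outer zone did not all point the same way. The outer-minus-rest value, a difference of medians, differed from wild type by −0.12, with no overlap of the arrays (exact permutation test, two-sided, p = 0.1, 0.133 after adjustment over 4 strain pairs). It was −0.040 with normexp and −0.0011 with loess after normexp, and −0.18 for the outer 10 kb. The median of the differences of single outer probes was 0.037, close to the 0.032 of the rest, and the median difference over the 29 ends tested as 20 kb windows was 0.023, with 12 of 29 below 0. The outer medians of *rsc1*Δ were −0.41 on right and −0.37 on left arms, against −0.19 and −0.33 in wild type. The differences by distance were uneven. From 10 to 15 kb *rsc1*Δ differed from wild type by −0.14, without overlap. Within 2 kb *rsc1*Δ had −2.22, −2.08 and −2.11 (difference −0.43) and from 2 to 5 kb −0.94, −0.76 and −1.01 (difference −0.30), all below the wild type arrays, whereas from 5 to 10 kb the groups overlapped and from 15 to 20 kb *rsc1*Δ was higher by 0.092, without overlap (exact permutation tests, two-sided, p = 0.1 for each class without overlap, 0.2 after adjustment over the 28 comparisons). At the 8 left ends with a first probe within 3 kb of the first base, *rsc1*Δ stood at −3.58 ± 0.15 within 2 kb. Wild type stood there at −3.71 ± 0.24. From 2 to 5 kb these ends had −2.48 ± 0.05 and −2.27 ± 0.18 (SD, n = 3 each). Over all ends, the median of the differences of single probes was −0.11 within 2 kb and 0.013 from 2 to 5 kb. Leaving out each end in turn moved the difference within 2 kb between −0.56 and −0.15. In the shared scan day, with 2 arrays each, the differences in the first 2 classes were −0.47 and −0.27. Under loess after normexp they were 0.013 and 0.0038. Single probes called were 11 lower and 3 higher, 0.619% and 0.169% of the outer probes, against 0.0603% and 0.0482% of all nuclear probes. Of the 11, 10 lay in the outermost 5 kb. With the other background corrections, loess, the deposited table or one spread, 0 outer probes were called, except 1 lower with one spread. The largest fall was at 941539 to 941598 on the right end of chromosome 16, 1.27 kb from the last probe, with −2.16, −3.26 and −2.82 in *rsc1*Δ, against −0.38, −0.17 and −0.12 in wild type (adjusted p = 0.00133 in limma). It was part of the longest run, 5 neighboring probes between 940818 and 941896 that went from 0.05 ± 0.16 in wild type to −2.22 ± 0.06 in *rsc1*Δ (SD, n = 3 each), of which 2 were well above background on all 6 arrays. The largest rise was on the left end of chromosome 16, at 20382 to 20439, with 1.12, 0.79 and 0.71 in *rsc1*Δ, against −1.87, −0.81 and −0.90 in wild type (adjusted p = 0.0113), and its call was lost without wild type repeat 1 or without *rsc1*Δ repeat 1 (adjusted p up to 0.0713).

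Among the outermost 5 kb windows, 5 of 26 were lower in *rsc1*Δ than in wild type, against 0.648% of all 5 kb windows, and 0 were higher in limma (1 at an unadjusted p under 0.05), against 0.778%. The 26 did not fall as a group: the median difference was 0.019, 12 were below 0, and the *rsc1*Δ arrays lay entirely above those of wild type at 3. They were the right ends of chromosomes 16, 9 and 14 and the left ends of chromosomes 8 and 15. The right end of chromosome 16 was at −0.57, −0.78 and −0.65 in *rsc1*Δ, against 0.23, 0.36 and 0.27 in wild type (difference −0.95 ± 0.09, SE, adjusted p = 4.34e-05 in limma), and that of chromosome 9 differed by −0.91 (adjusted p = 0.000414). The groups did not overlap at either. At 9 right and 15 left *rsc2*Δ differed from the same wild type arrays by −0.42 and −0.60 (adjusted p = 0.0274 and 0.00274). Of the 20 kb ends, 1 was lower in *rsc1*Δ, the right end of chromosome 3 at −1.37, −1.07 and −1.10 against −0.61, −0.74 and −0.80 (adjusted p = 0.0406), and 0 were higher (2 at an unadjusted p under 0.05), with a background of 0.168% in each direction. The call at 3 right was lost when any of 5 of the 6 arrays compared was left out. With other corrections or scalings, 0 of the 5 kb windows were called lower with the deposited table, normexp or median signals minus background, 1 with loess after normexp or with arrays scaled to one spread, and 0 of the 20 kb ends under any of them.

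In *rsc2*Δ the outer zone as a whole differed little from wild type, while single ends were called in both directions. The outer-minus-rest value differed by 0.038, without overlap (exact permutation test, two-sided, p = 0.1), and the sign turned to −0.019 over well measured probes and −0.015 with ends weighted the same. The log2 ratios of the groups overlapped in every distance class of the zone. Single probes called were 10 higher and 4 lower, 0.562% and 0.225% of the outer probes, against 0.154% and 0.374% of all nuclear probes. The largest rise was at 722295 to 722354 on the right end of chromosome 10, 5.75 kb from the last probe, with 1.71, 1.92 and 1.87 in *rsc2*Δ, against 0.13, −0.17 and 0.07 in wild type (adjusted p = 0.028 in limma), and the largest fall at 311509 to 311568 on the right end of chromosome 3, with 0.47, −0.30 and −0.31 against 2.10, 1.43 and 1.13 (adjusted p = 0.028). Each of these calls was lost when any of 5 of the 6 arrays compared was left out, and 0 outer probes were called with the other background corrections, loess, the deposited table or one spread. Of the 20 kb ends 4 were higher and 3 lower, against 2.35% and 3.7% of all windows. The right end of chromosome 5 rose from −0.04, −0.08 and −0.15 to 0.28, 0.30 and 0.39 (adjusted p = 0.000338), and the left ends of chromosomes 1, 11 and 6 by 0.43, 0.28 and 0.26. The right end of chromosome 3 fell by 0.52, as its counterpart in *rsc1*Δ did by 0.46 against the same wild type arrays, and the left end of chromosome 14 and the right end of chromosome 4 fell by 0.32 and 0.28. The calls at 1 left and 11 left (adjusted p = 0.0435 and 0.0495 in limma) were lost when any of 5 of the 6 arrays compared was left out, that at 14 left without wild type repeat 1 or 2, and that at 4 right without wild type repeat 1. None of these ends was called with another background correction, with loess, in the deposited table, with arrays scaled to one spread or over well measured probes. Of the outermost 5 kb windows, 3 of 26 were higher and 3 lower, against 4.41% and 5.23% of all 5 kb windows. The higher ones were 5 right, from 0.06, 0.22 and 0.10 in wild type to 0.53, 0.76 and 0.69 in *rsc2*Δ (adjusted p = 0.00601), 2 left and 6 left. The arrays overlapped at 6 left but not at 2 left. The lower ones were 3 right, 9 right and 15 left, the last from −1.15, −1.34 and −1.41 to −1.93, −1.82 and −1.94. With the other background corrections, loess, the deposited table or one spread, 0 of the 26 were called in either direction. The median difference over the 26 was 0.24, against 0.012 over all 5 kb windows, and 10 of the 26 were below 0.

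The *rsc1*Δ and *rsc2*Δ strains also differed from each other. The outer-minus-rest value of *rsc1*Δ minus that of *rsc2*Δ was −0.16, and the arrays did not overlap (exact permutation test, two-sided, p = 0.1). The difference was −0.15 and −0.19 on the 2 days on which both were scanned. Between them 38 outer probes were lower in *rsc1*Δ and 13 higher, 2.14% and 0.731%, against 0.448% and 0.494% of all nuclear probes. The largest differences were on the left end of chromosome 8, at 6605 to 6656, with −0.83, −0.60 and −1.42 in *rsc1*Δ, compared with 1.98, 1.35 and 1.21 in *rsc2*Δ (adjusted p = 0.00134 in limma), and at 6979 to 7032, with −1.48 ± 0.55 and 0.94 ± 0.14 (SD, n = 3 each). In the other direction, the leading probes were neighbors on the left end of chromosome 16, at 19868 to 19927 with 3.02 ± 0.51 in *rsc1*Δ against 0.77 ± 0.81, and at 20382 to 20439 with 0.87 ± 0.22 against −1.37 ± 0.21 (SD, n = 3 each). Of the outermost 5 kb windows, 6 of 26 were lower in *rsc1*Δ and 1, 4 right, was higher, against 4.15% and 5.7% of all windows. Of the 20 kb ends, 3 were lower (5, 14 and 16 right) and 1 was higher (4 right), against 3.03% and 5.38%. The right end of chromosome 5 had −0.06, −0.12 and −0.07 in *rsc1*Δ, against 0.28, 0.30 and 0.39 in *rsc2*Δ (adjusted p = 0.000386). Under the other background corrections, loess, the deposited table or one spread for all arrays, 0 of these 4 ends and at most 1 outer probe were called, and 0 or 1 of the outermost 5 kb windows was lower and 0 higher. The calls at 16 right and the probe at 19868 were also lost when single arrays were left out, the first with any of 3 and the second with any of 4 of the 6 arrays.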

How the data were processed

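ChIP and input DNA of each culture were amplified by double T7 linear amplification, labeled and hybridized to Agilent yeast 4x44K tiling arrays. The authors deposited the scanner output, with intensity values for spots and background (Agilent Feature Extraction 10.5.1.1), and a table of normalized log2 ratios, for which the methods name median normalization within and Aquantile between arrays in limma. Each column of that table was a straight-line function of log2 median signal minus background, with a slope that differed between arrays, and it was used as an alternative. Processed signals were used here as log2 of Cy5 over Cy3, without outlier spots, centered on each array's median. Probe positions are those of the array design (sacCer1, per the file headers). Distances were counted from the first or last probe of a chromosome.

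Probes with at least 8 values, windows of 20 kb with at least 20 probes and windows of 5 kb with at least 5 probes were fitted with limma 3.58.1 (lmFit, eBayes) in R 4.3.3 over all 12 arrays, with Benjamini-Hochberg adjustment over all nuclear probes or windows. The fit was run on simulated data with known changes and noise drawn independently for each probe. That simulation held no variation shared by neighboring probes, so it does not show how reliable the window calls are. Zone values have 1 value per array and were compared by exact permutation tests. Plots were drawn with matplotlib 3.10.9. Probes named were the 3 largest called differences each way among those with no overlap between strains and with IP and input signals both above background on the 6 arrays compared, and ends the 3 largest called each way. The members and lists were chosen with earlier results of these data known. The R64 gene table served only for gene names and their order. The alternatives were other background and dye corrections, the deposited table, a single spread for all arrays, a filter on dim probes, other zone widths, blocks for repeat number and scan day, and leaving out each array; 5 kb windows and the fixed scan day block were added after the data were seen. The number of arrays limits the precision.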

Additional observations from a re-analysis of the deposited data

Results flagged for a closer look

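Outer 20 kb probes that differed between *rsc1*Δ and *rsc2*Δ numbered 51, of which 38 were lower in *rsc1*Δ, and this was flagged as a difference between deletions that were each compared with the same wild type arrays, tested directly with limma. Chromosome ends that differed between them as 20 kb windows numbered 4, with 3 lower in *rsc1*Δ. Groups of 3 arrays are too small for a test of single outlying arrays, and none was made.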

How the results depend on the processing

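The low AcH4 of the outer zone over the 12 arrays kept its sign and its exact p under each alternative with all arrays, between −0.62 for the outer 10 kb and −0.067 with loess after normexp, and stayed between −0.33 and −0.31 when any 1 array was left out. The percentile rank of *rco1*Δ minus wild type stayed between −8.00 and −4.71. Within 2 kb, where 52.4% of *rco1*Δ and 71.5% of wild type IP signals passed the background test, levels rest in part on signals near background. The cause of the changes below was not tested, and a call lost with a stricter threshold or with fewer arrays or probes follows from that setting's construction.

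The outer-minus-rest difference of *rco1*Δ from wild type was 0.032 with normexp and 0.037 for the outer 30 kb. That of *rsc2*Δ was −0.019 over probes well above background and −0.015 with ends weighted the same, and in the outermost 5 kb it was −0.12 over such probes. Within 2 kb, *rco1*Δ minus wild type was 0.17 with normexp and *rsc1*Δ minus wild type 0.013 with loess, while *rsc2*Δ minus wild type was 0.031 with median signals minus background, 0.035 with normexp, 0.061 with loess, 0.078 in the deposited table, 0.14 with one spread for all arrays and 0.11 over well measured probes. From 2 to 5 kb *rsc1*Δ minus wild type was 0.0038 with loess and *rsc2*Δ minus wild type −0.11 over well measured probes. From 5 to 10 kb *rsc1*Δ minus wild type was −0.052 with median signals minus background and −0.038 in the deposited table, and *rsc1*Δ minus *rsc2*Δ was 0.0057 with loess. From 10 to 15 kb *rco1*Δ minus wild type was −0.024 with one spread and −0.21 over well measured probes, and *rsc2*Δ minus wild type −0.065 over the latter. From 15 to 20 kb *rco1*Δ minus wild type was 0.021 in the deposited table and 0.0070 with one spread, and *rsc1*Δ minus wild type −0.020 with loess. Levels that turned above 0 over well measured probes were those from 2 to 5 kb (wild type 0.16, *rsc2*Δ 0.057), from 5 to 10 kb (wild type 0.22, *rsc1*Δ 0.23, *rsc2*Δ 0.35) and from 10 to 15 kb (wild type 0.24, *rsc1*Δ 0.10, *rsc2*Δ 0.18, *rco1*Δ 0.031), and with loess those from 5 to 10 kb (wild type 0.00031, *rsc1*Δ 0.040, *rsc2*Δ 0.034). For input, the outer-minus-rest value over well measured probes was 0.0013 in *rsc2*Δ and 0.081 in *rco1*Δ, and *rsc2*Δ minus wild type was 0.019 with median signals minus background, 0.025 with normexp and 0.0042 over well measured probes.

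Of the 309 outer probes called higher in *rco1*Δ, the count became 98 with median signals minus background, 160 with normexp, 121 with loess, 157 in the deposited table, 140 over well measured probes and 187 with scan day as a fixed block. The 540 called lower became 315, 243 and 143 under the first 3 of these, 214 with the scan day block and 320 at an adjusted p under 0.01. In the 4 counts of outer probes for *rsc1*Δ or *rsc2*Δ against wild type, and in the 2 for *rsc1*Δ against *rsc2*Δ, the other background corrections, loess, the deposited table and one spread gave 0, except 1 lower in *rsc1*Δ with one spread and 1 lower against *rsc2*Δ with normexp. Repeat numbers did not pair the samples (correlations of −0.32 to 0.32 between deviations). With the replicate block the probe counts higher and lower were 1 and 3 for *rsc1*Δ, 3 and 2 for *rsc2*Δ and 8 and 22 between them, 0 of the 20 kb ends were lower in *rsc1*Δ and 2 were higher in *rsc2*Δ. With the scan day block the counts were 0 and 0, 0 and 0, and 7 and 22. At an adjusted p under 0.01 they were 0 and 3, 0 and 0, and 3 and 9. With only the 6 arrays compared, 7 were lower in *rsc2*Δ, and 7 higher and 14 lower between the mutants.

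Of the 20 kb ends, those called higher in *rco1*Δ numbered 0 with median signals minus background and in the deposited table, 3 with normexp, 3 with loess, 2 with one spread and 2 over well measured probes. Those called lower numbered 11 with median signals minus background, 5 with normexp, 10 with loess, 10 with the scan day block and 9 with medians in place of means. For the RSC mutants, all end counts were 0 with the other corrections, the deposited table, one spread and well measured probes, apart from 1 lower in *rsc1*Δ in the comparison of both mutants over well measured probes. With the scan day block, an adjusted p under 0.01 or medians, the 1 end lower in *rsc1*Δ became 0 and the 4 higher in *rsc2*Δ became 1. The 3 ends lower in *rsc2*Δ became 1 with the scan day block, and the 3 lower in *rsc1*Δ in the comparison of both mutants became 1 at an adjusted p under 0.01 and 1 with medians. Of the outermost 5 kb windows, 2 were higher in *rco1*Δ with loess, and 6 were lower with loess, 3 with normexp and 24 with one spread. Those lower in *rsc1*Δ than in wild type or *rsc2*Δ numbered 1 with loess and 1 with one spread, and 0 in the deposited table and with the other background corrections. The 3 higher and 3 lower in *rsc2*Δ, and the 1 higher in *rsc1*Δ than in *rsc2*Δ, became 0 under these 5 settings, and the 3 higher in *rsc2*Δ became 1 with the replicate block and 1 with the scan day block.

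Leaving out 1 array at a time gave ranges of −0.12 to 0.066 (within 2 kb) and −0.010 to 0.076 (2 to 5 kb) for *rsc2*Δ minus wild type, −0.030 to 0.034 (5 to 10 kb) for *rsc1*Δ minus wild type, −0.026 to 0.0052 (15 to 20 kb) for *rco1*Δ minus wild type and −0.051 to 0.030 (15 to 20 kb) for *rsc1*Δ minus *rsc2*Δ. For *rsc2*Δ minus wild type it gave −0.021 to 0.081 in the outermost 5 kb, and −0.017 to 0.016 for input. Counts of outer probes ranged from 0 to 2 higher and 3 to 6 lower in *rsc1*Δ, 0 to 5 higher and 0 to 5 lower in *rsc2*Δ, and 3 to 9 higher and 9 to 22 lower between them. Counts of 20 kb ends ranged from 0 to 1 lower in *rsc1*Δ and from 1 to 7 higher and 1 to 3 lower in *rsc2*Δ, and those of 5 kb windows lower in *rsc1*Δ against *rsc2*Δ from 3 to 7, higher in that comparison from 0 to 1, and higher and lower in *rsc2*Δ against wild type from 1 to 6 and from 1 to 3.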
